A study of Schizosaccharomyces pombe with 10 samples.

Results

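The genes gpd1 (SPBC215.05) and gpd2 (SPAC23D3.04c) each encode a glycerol-3-phosphate dehydrogenase of fission yeast, Schizosaccharomyces pombe. They are 2 of the 6116 Gene IDs in a table of chromatin immunoprecipitation signal. Their windows were those carrying either Gene ID, 18 for gpd1 and 19 for gpd2 out of 126317 in the table, and with 2 kb on each side the windows numbered 117. The gene gpd1 was chosen by its own signal, since its windows had the smallest p in the table for Myo1-GFP versus NoIP in high phosphate and for the interaction described below, and gpd2 was taken as its paralogue. The values of gpd1 are therefore given as a description without p-values, and of these 2 genes only gpd2 carries tests that are read. Counts of gpd1 windows past a threshold are given for completeness and support nothing. Tests of neighbouring and listed genes are given where those genes are named.

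Glycerol-3-phosphate dehydrogenase reduces dihydroxyacetone phosphate, an intermediate of glycolysis, to glycerol-3-phosphate with electrons from NADH. Glycerol-3-phosphate feeds the synthesis of phospholipids and of glycerol, the solute that yeasts accumulate when the medium becomes hypertonic. In fission yeast the stress MAP kinase Sty1 (also called Spc1) and the transcription factor Atf1 are known to raise gpd1 transcription under osmotic stress. Myo1 is the class I myosin of this yeast, a motor that binds membranes and promotes actin assembly at sites of endocytosis.

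The design compared Myo1-GFP with NoIP libraries in control medium and when phosphate is low. The study asked whether Myo1 enters the nucleus or joins chromatin, and reported no evidence of either. Signal in a Myo1-GFP library is therefore not read here as binding of Myo1. The Myo1-GFP libraries came from a strain labelled Myo1-GFP, with 3 replicates grown in YES, the high phosphate medium, and 3 in YES LowPi, the low phosphate medium. The NoIP libraries came from a strain labelled wild-type, with 2 replicates in each medium. All cells spent 4 h at 30 °C in their medium, were adjusted to 0.5 OD per ml and were fixed for 30 min in 3% formaldehyde. The labels describe a GFP-Trap pulldown for every library, although the name NoIP may mean that none was made. Whether NoIP is a pulldown from untagged cells or chromatin without a pulldown is not settled by the labels, so either the strain alone or both strain and pulldown differ in each Myo1-GFP minus NoIP value. Where the tag was inserted, and whether a strain was 1 clone, are not given in the sources used here. The labels do not say whether replicates were separate cultures, and the p-values measure only the spread between these libraries.

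Each deposited value was a whole multiple of a smallest step, and the library totals ran from 1.42 M to 43.8 M steps (M, mega), a 30.8-fold range. If a step is 1 read, which the sources used here do not state, these are read totals over overlapping windows. Replicate 3 of Myo1-GFP stood apart in both media, with 8 steps in its median window in high phosphate and 11 in low phosphate, against 64 or more elsewhere. At gpd1 the windows of those libraries held 2 to 26 steps and 18 to 53 steps. Single windows of these libraries are therefore coarse. Values that they move by a large factor are also given from the 8 deeper libraries, that is without replicate 3 of Myo1-GFP in both media. All values below are log2(signal + 1) minus the value of the median window of the same library, so that 0 is the median window. Errors of levels are SD over libraries, and errors of differences are standard errors (SE) from the limma fit over all Gene IDs or all windows.

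The paralogues differ along their coding sequences. By the annotation of RefSeq assembly ASM294v3, gpd1 lies on the plus strand of chromosome II (4035566 to 4037342) and gpd2 on the minus strand of chromosome I (4342230 to 4343927). Each has 1 coding exon, of 1158 bases (385 residues) in gpd1 and 1122 bases (373 residues) in gpd2. The proteins were identical at 221 of 368 aligned residues (60.1%), and 63.0% of the aligned coding bases were the same. The longest identical run of coding bases was 14, and none of the 1728 words of 50 bases in gpd1 or the 1649 in gpd2 occurred a second time in the genome. The stretch below lies under the gpd1 window with the smallest p of that contrast, and is shown to let the paralogues be compared base by base. It covers coding bases 488 to 597 of gpd1 (chrII:4036301-4036410, plus strand) and 494 to 603 of gpd2 (chrI:4343006-4343115, minus strand). Capitals mark the 36 of 110 bases that differ.
gpd1 coding stretch: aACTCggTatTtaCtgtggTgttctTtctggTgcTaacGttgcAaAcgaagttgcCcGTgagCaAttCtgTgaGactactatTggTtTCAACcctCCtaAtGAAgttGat
gpd2 coding stretch: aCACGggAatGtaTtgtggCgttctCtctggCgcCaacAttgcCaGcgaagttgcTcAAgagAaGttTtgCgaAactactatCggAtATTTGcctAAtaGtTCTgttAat

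Over the 500 bp upstream of gpd1, signal in the deeper libraries of both kinds was higher in low phosphate. With all libraries the Myo1-GFP groups overlapped there, and these windows were not tested. The 250 bases before each annotated gene start are shown because of that higher signal. They are chrII:4035316-4035565 (plus strand) for gpd1 and chrI:4343928-4344177 (minus strand) for gpd2, from RefSeq ASM294v3, with 45.2% and 32.0% G and C. Capitals mark matches to TGACGT, the core of the element that Atf1 binds, searched on both strands.
gpd1 promoter: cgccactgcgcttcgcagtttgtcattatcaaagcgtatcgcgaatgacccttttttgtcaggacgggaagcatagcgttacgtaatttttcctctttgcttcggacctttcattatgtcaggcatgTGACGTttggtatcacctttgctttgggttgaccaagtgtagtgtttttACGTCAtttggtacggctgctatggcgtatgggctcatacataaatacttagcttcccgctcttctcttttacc
gpd2 promoter: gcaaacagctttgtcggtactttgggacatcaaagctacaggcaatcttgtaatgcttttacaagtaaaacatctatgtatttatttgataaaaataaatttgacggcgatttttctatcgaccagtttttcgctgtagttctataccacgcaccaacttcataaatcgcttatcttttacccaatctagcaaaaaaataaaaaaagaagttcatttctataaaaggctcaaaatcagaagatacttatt
The gpd1 promoter held 2 matches, 123 and 74 bases before the gene start, the latter on the reverse strand (ACGTCA as printed), and the gpd2 promoter held 0. Of 5112 promoters of the same length, 282 (5.52%) held this core. The C-rich stress element CCCCTC was in 87 promoters (1.70%) and in neither of these. A match describes the letters of the window and is not evidence of binding.

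Signal over gpd1 was high in NoIP in both media and in Myo1-GFP in low phosphate, and was lower in Myo1-GFP in high phosphate. The gpd1 mean over its 18 windows was 0.60, 0.64 and 0.39 in the Myo1-GFP libraries from high phosphate and 1.73 and 1.40 in the NoIP libraries. The low phosphate libraries had 1.29, 1.25 and 1.45 in Myo1-GFP and 1.29 and 1.50 in NoIP. Myo1-GFP thus lay wholly below NoIP in high phosphate, while the groups overlapped in low phosphate. In high phosphate the mean was 0.54 ± 0.13 (SD, n = 3) for Myo1-GFP and 1.57 ± 0.23 (SD, n = 2) for NoIP, a difference of -1.02 ± 0.17 (SE). In low phosphate the means were 1.33 ± 0.10 (SD, n = 3) and 1.39 ± 0.15 (SD, n = 2), a difference of -0.06 ± 0.17 (SE), which turned to 0.04 without NoIP low phosphate replicate 2. Without both Myo1-GFP replicates 3 the differences were -0.95 and -0.12. These values include those that selected gpd1, whose difference in high phosphate was the 5th lowest of 6115 Gene IDs. In none of the 5 contrasts did a gpd1 window pass an adjusted p under 0.05 (limma, Benjamini-Hochberg). With weights per library 17 of 18 gpd1 windows passed for the Myo1-GFP change with phosphate, as did 10189 of 126242 windows in all. The 8 deeper libraries gave 4 gpd1 windows for that change, and their count over all windows is not given here. These counts belong to the selection and are not read further.

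**Figure D1:**
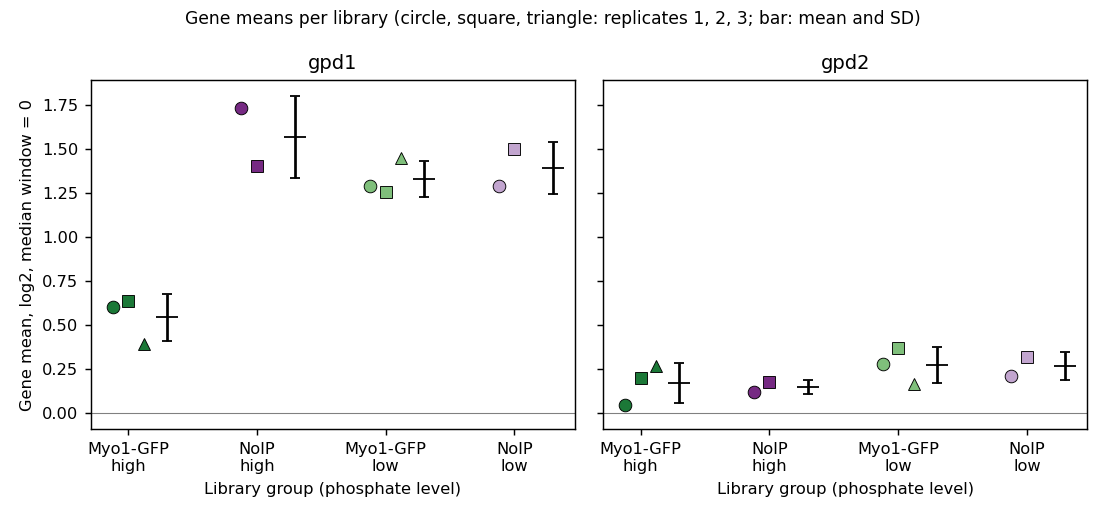
Mean log2 signal of gpd1 (18 windows) and gpd2 (19 windows) in each of the 10 libraries, with the median window of each library at 0. Points are libraries, and bars are the group mean with SD. The 3 Myo1-GFP libraries from high phosphate lie at 0.39 to 0.64 for gpd1, below the other 7, whereas for gpd2 all libraries lie between 0.05 and 0.37.

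Signal over gpd2 was close to the median window and similar in all groups. The gpd2 mean over its 19 windows was 0.05, 0.20 and 0.27 in the Myo1-GFP libraries from high phosphate and 0.12 and 0.18 in the NoIP libraries. The values in low phosphate were 0.28, 0.37 and 0.17 in Myo1-GFP and 0.21 and 0.32 in NoIP. Both kinds of library overlapped in each medium. Myo1-GFP minus NoIP was 0.02 ± 0.11 (SE) in high phosphate (limma, Benjamini-Hochberg adjusted p = 0.9998) and 0.01 ± 0.11 (SE) in low phosphate (adjusted p = 0.994). Over all Gene IDs, 0% passed in high phosphate and 0% in low phosphate, with 104 and 17 of 6115 at an unadjusted p under 0.05. The exact two-sided permutation test over libraries gave p = 0.8 in high and p = 1.0 in low phosphate, where the smallest p that 10 arrangements allow is 0.2.

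The rule for these genes set the opposite moves of Myo1-GFP and NoIP with phosphate at gpd1 against those at gpd2. Every Myo1-GFP library from low phosphate had more signal over gpd1 than any from high phosphate, by 0.78 ± 0.15 (SE), while NoIP signal differed by -0.17 ± 0.18 (SE) with overlapping groups. The interaction, the Myo1-GFP change minus the NoIP change, was 0.96 ± 0.24 (SE) at gpd1. The NoIP change rested on the pair of high phosphate libraries, being -0.0083 without NoIP high phosphate replicate 1 and -0.34 without replicate 2. At the level of the whole gene the downward move of NoIP was therefore smaller than its spread. Among 6115 Gene IDs, the change of gpd1 ranked 71st from the top in Myo1-GFP and 590th from the bottom in NoIP, and its interaction ranked 5th from the top.

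At gpd2 both kinds of library had slightly more signal in low phosphate, and no change passed the test. The change of gpd2 was 0.10 ± 0.10 (SE) in Myo1-GFP (limma adjusted p = 0.709), or 0.20 in the 8 deeper libraries, and 0.12 ± 0.13 (SE) in NoIP (adjusted p at 1.0 after rounding). Of all Gene IDs, 0.131% passed for Myo1-GFP and 0.213% for NoIP. The NoIP groups at gpd2 did not overlap, low phosphate being the higher, an order found for 28.9% of Gene IDs. The gpd2 interaction was -0.02 ± 0.16 (SE), with an adjusted p at 1.0 after rounding, and 0% of Gene IDs passed (28 at an unadjusted p under 0.05). Exact permutation p-values were 0.4 for Myo1-GFP (smallest possible 0.1), 0.333 for NoIP (smallest possible 0.333) and 0.883 for the interaction (smallest possible 0.0167).

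Taken per library, gpd1 minus gpd2 was 0.55, 0.43 and 0.12 in Myo1-GFP and 1.61 and 1.22 in NoIP in high phosphate. In low phosphate it was 1.01, 0.88 and 1.28 in Myo1-GFP and 1.07 and 1.17 in NoIP. Signal over gpd1 exceeded that over gpd2 in all 10 libraries, by least in Myo1-GFP from high phosphate. For this paralogue difference, Myo1-GFP minus NoIP was -1.05 in high and -0.07 in low phosphate, and the change with phosphate was 0.68 in Myo1-GFP and -0.29 in NoIP. By this measure the NoIP libraries from low phosphate were both below those from high phosphate, although over gpd1 itself they overlapped. The NoIP change of -0.29 joins -0.17 at gpd1 with a rise of 0.12 at gpd2. How many pairs of Gene IDs have this order was not counted. These differences inherit the selection of gpd1 and were not tested.

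In comparison with other Gene IDs, gpd1 carried much signal in every library. Its level was above 98.6% and 98.9% of Gene IDs in the NoIP libraries from high phosphate, and above 94.4%, 94.1% and 80.3% in the Myo1-GFP libraries. In low phosphate it was above 95.3% to 98.2% of Gene IDs in all 5 libraries. The level of gpd2 was above 64.2% to 82.8% of Gene IDs over the 10 libraries. As a Gene ID with every Myo1-GFP library below every NoIP library in high phosphate, gpd1 was 1 of 677 (11.1% of those tested), and gpd2 was not among them. With every Myo1-GFP library from low above every one from high phosphate, gpd1 was 1 of 562 (9.19%), and again gpd2 was not. Such an order alone was common in these groups.

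**Figure D2:**
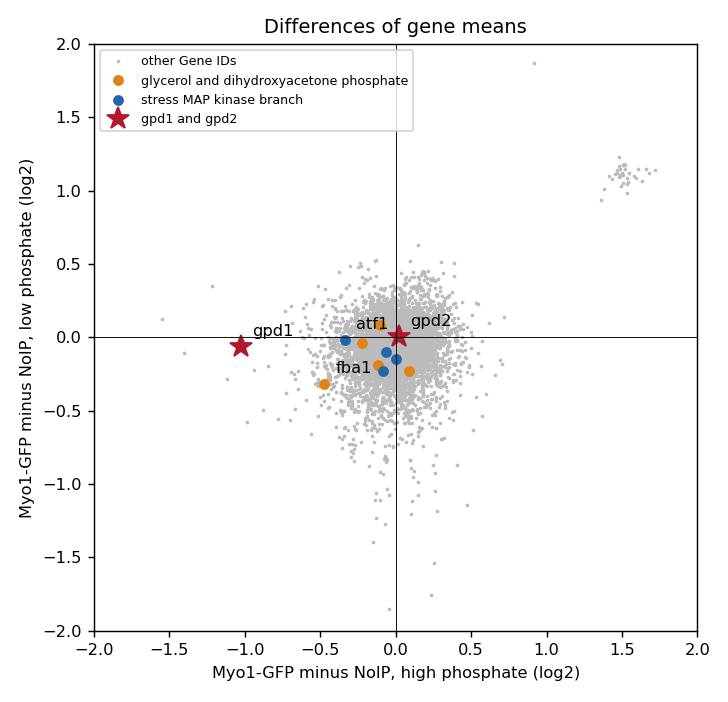
Myo1-GFP minus NoIP in low phosphate (vertical axis) against the same difference in high phosphate (horizontal axis), both in log2 units, for 6110 of 6115 Gene IDs (5 lie beyond 2 log2 units). Stars are gpd1 and gpd2, and coloured points are the genes of glycerol metabolism and of the stress MAP kinase branch. The star of gpd1 lies at -1.02 and -0.06, and that of gpd2 at 0.02 and 0.01, inside the main cloud.

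Along gpd1, Myo1-GFP lay below NoIP over the whole gene in high phosphate and by little or not at all in low phosphate. All 18 windows had a difference below 0 in high phosphate, and in 16 of them every Myo1-GFP library lay below every NoIP library (9.41% of all windows did so). The difference ran from -1.50 ± 0.57 (SE) in the window starting at 4035701, over the end of the 5′ untranslated region, to -0.59 ± 0.29 (SE) at 4037201, over the 3′ untranslated region. The median was -1.02. Both ends of this range rested on the shallow Myo1-GFP replicate 3. In the 8 deeper libraries the groups were apart in all 18 windows. Leaving out libraries can only keep or raise that count, and its share over all windows was not counted. The difference at 4035701 was -0.75 in these libraries, and the range ran from -1.14 at 4036601, in the coding sequence, to -0.65 at 4035601. In low phosphate the same windows had a median of -0.04 and a range from -0.30 at 4037301 to 0.18 at 4035801, with 10 of 18 below 0. Every Myo1-GFP library lay below both NoIP libraries in 5 of 18 of them, none the other way, against 11.9% of all windows. By the 8 deeper libraries 16 of 18 were below 0, with a median of -0.12. The window at 4035701 also held the lowest value of the shallow Myo1-GFP replicate 3 in high phosphate, -2.00, where the other Myo1-GFP libraries had 0.27 and 0.20 and the NoIP libraries 1.01 and 0.96.

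Windows of gpd2 showed no such run. In high phosphate 3 of 19 gpd2 windows had every Myo1-GFP library below every NoIP library, and 1 had the reverse. The differences ran from -0.41 at 4342201, over the 3′ end, to 0.58 at 4343901, over the gene start, with a median of 0.06. In low phosphate they ran from -0.43 at 4342201 to 0.20 at 4342501. The ranges narrowed in the 8 deeper libraries to -0.34 to 0.26 in high and -0.09 to 0.26 in low phosphate. None of the gpd2 windows passed in either medium, nor did any window of the table (0% in each), and at an unadjusted p under 0.05 the count was 0 of 19 gpd2 windows in both media, against 1513 and 154 of 126242 windows in all.

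**Figure D3:**
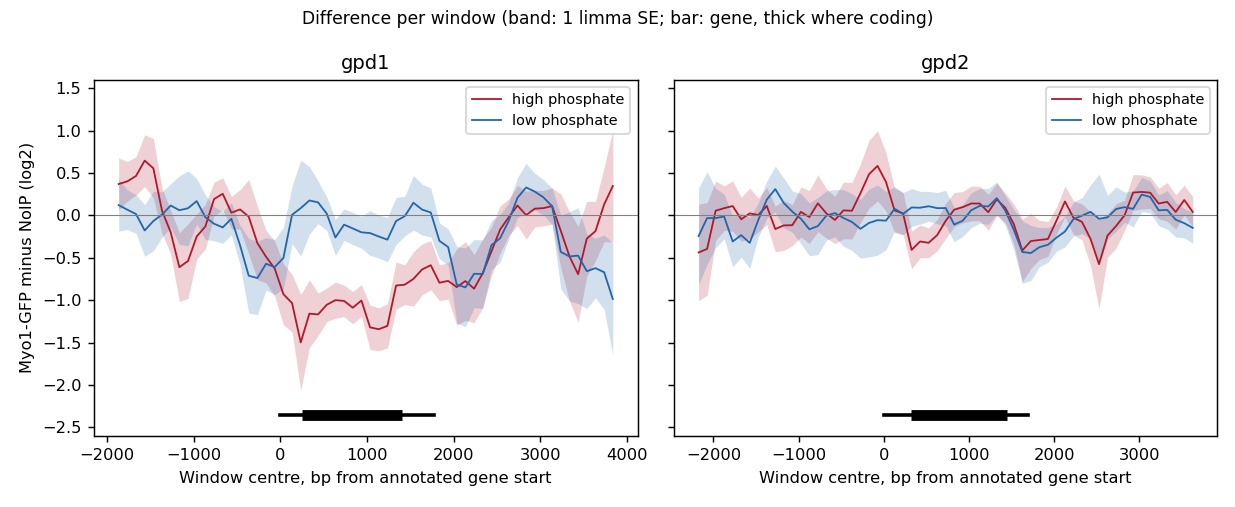
Myo1-GFP minus NoIP (log2 units) for each 200 bp window, against the distance of the window centre from the annotated gene start, for gpd1 and gpd2 in high and low phosphate. Lines are the limma estimates and bands 1 SE either way, with the gene drawn below (thick where coding). Over gpd1 the high phosphate line stays between -1.50 and -0.59, while the low phosphate line stays between -0.30 and 0.18.

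The opposite moves were found in the 5′ part of gpd1. In 5 of its 18 windows, starting at 4035701 to 4036101 and covering the end of the 5′ untranslated region and the first part of the coding sequence, every Myo1-GFP library was higher and both NoIP libraries were lower in low phosphate. With all 10 libraries this order held in 0.261% of all windows. The 5 windows adjoin and share signal, so they are not separate observations, and gpd1 was selected on this interaction. The 8 deeper libraries showed it in 5 windows of gpd1 as well. Leaving out libraries cannot undo such an order, so that count could only stay or rise. Its share over all windows in these 8 libraries was not counted. In the window at 4035901, where NoIP changed most, Myo1-GFP had 0.61, 0.33 and -0.19 in high phosphate and 0.83, 1.04 and 1.24 in low phosphate. The NoIP libraries had 1.55 and 1.29 in high phosphate and 0.79 and 0.97 in low phosphate there. The changes were 0.79 ± 0.22 (SE) in Myo1-GFP and -0.54 ± 0.27 (SE) in NoIP, and neither pair of groups overlapped.

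The order of the Myo1-GFP groups was the same over most of gpd1, whereas the NoIP groups mostly overlapped. Myo1-GFP was higher in low phosphate in all 3 replicates in 15 of 18 windows (7.38% of all windows), with changes from 0.42 at 4036101 to 1.36 at 4035701. In the 8 deeper libraries this order held in all 18 windows. With fewer libraries the count could only stay or rise, and its share over all windows was not counted. The change in these libraries was 0.45 at 4035701, within a range from 0.29 at 4035801 to 0.81 at 4036701. NoIP was lower in both replicates in the 5 windows named above, a share not far from the 21.8% of all windows with that order, and in 0 of 18 was it higher (24.0% of all windows). From 4036201 to 4037301, in the rest of the coding sequence and the 3′ untranslated region, the NoIP groups overlapped in every window. The interaction was above 0 in all 18 windows, from 0.49 at 4037301 to 1.58 at 4035701, or from 0.50 at 4035601 to 1.0 at 4035901 in the 8 deeper libraries.

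At gpd2 the order of opposite moves appeared in 1 of 19 windows, at 4343301 in the coding sequence. In the 8 deeper libraries it appeared in 3 of 19, a count that could likewise only stay or rise and has no share over all windows beside it. At 4343301 Myo1-GFP had 0.09, 0.16 and 0.17 in high phosphate and 0.21, 0.52 and 0.35 in low phosphate. NoIP in that window had 0.55 and 0.37 in high and 0.20 and 0.30 in low phosphate. Over gpd2 as a whole NoIP was lower in low phosphate in 5 windows and higher in 7. Myo1-GFP was higher in all replicates in 4, or in 8 by the 8 deeper libraries. The share of all windows for the last count was likewise not counted. The 5 lower windows lay in the 5′ part of the coding sequence and the 7 higher ones from the middle of it to the 3′ end. None of the gpd2 windows passed for Myo1-GFP, where 3 of 19 had an unadjusted p under 0.05 and 0.0174% of all windows passed. None passed for NoIP or for the interaction, where 0 of 19 gpd2 windows had an unadjusted p under 0.05 and 0% of all windows passed (5784 and 406 at an unadjusted p under 0.05).

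**Figure D4:**
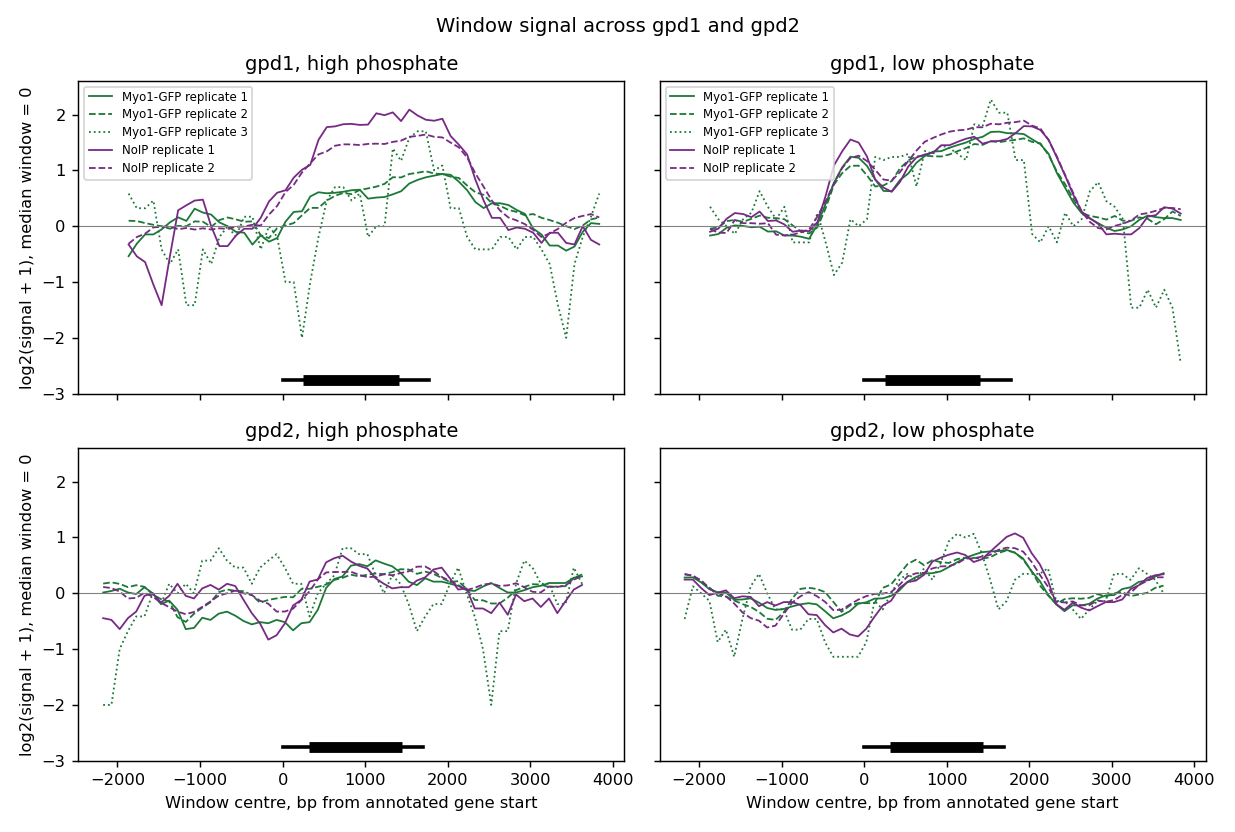
Window signal (log2, median window of each library at 0) from 2 kb before to 2 kb after gpd1 and gpd2, against the distance from the annotated gene start. Green lines are Myo1-GFP and purple lines NoIP, with line style for the replicate, and the gene is drawn at the bottom of each panel (thick where coding). In low phosphate gpd1 shows a second peak before the gene start in the 4 deeper libraries, which is missing in high phosphate.

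Before the gene start of gpd1 both kinds of library were higher in low phosphate, apart from the shallow Myo1-GFP replicate 3. These windows were not tested. Over the 5 windows within 500 bp upstream, NoIP had 0.22 and 0.12 in high phosphate and 1.20 and 0.95 in low phosphate. The 2 deeper Myo1-GFP libraries had -0.22 and -0.05 in high phosphate and 0.94 and 0.84 in low phosphate. The shallow Myo1-GFP replicate 3 had -0.05 in high and -0.34 in low phosphate. In the window starting at 4035301, which takes in most of the printed gpd1 promoter, Myo1-GFP had -0.28, -0.21 and 0.00 from high phosphate and 1.24, 1.08 and 0.13 from low phosphate. NoIP in that window had 0.44 and 0.21 in high phosphate and 1.55 and 1.22 in low phosphate. The media were apart in both kinds of library there, and the interaction was -0.08 ± 0.44 (SE), or 0.34 in the 8 deeper libraries. Both TGACGT matches lie in this window.

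The window at the gpd1 gene start (4035501) had 0.08, 0.01 and -1.0 in Myo1-GFP from high phosphate and 1.08, 0.91 and 0.13 from low phosphate. NoIP there had 0.64 and 0.61 in high and 1.25 and 1.17 in low phosphate. Next to it, in the window at 4035601, NoIP was 0.87 and 0.74 in high phosphate and 0.84 and 1.01 in low phosphate. Within a short distance the NoIP change thus passed from higher, through overlap, to lower in low phosphate, while Myo1-GFP remained higher. The corresponding window at the gpd2 gene start (4343801) had -0.52, -0.06 and 0.46 in Myo1-GFP and -0.54 and -0.33 in NoIP in high phosphate. In low phosphate it had -0.16, -0.18 and -0.87 in Myo1-GFP and -0.63 and -0.05 in NoIP, with all groups overlapping.

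By segment, the Myo1-GFP deficit in high phosphate was -1.15 over the 5′ untranslated region of gpd1, -1.12 over the coding sequence, -0.70 over the 3′ untranslated region and -0.81 over the 500 bp downstream. In low phosphate it was -0.14, -0.11, 0.06 and -0.61 in the same order. The 5′ value rested on Myo1-GFP replicate 3, at -1.33 against 0.20 and 0.09 in the other replicates. The high phosphate deficits in the 8 deeper libraries were -0.66, -1.01, -0.93 and -0.69, so that the coding sequence and not the 5′ untranslated region had the largest, and those in low phosphate were -0.15, -0.13, -0.09 and -0.23. The downstream difference in low phosphate came with low values of the shallow Myo1-GFP replicate 3, at 0.39 against 1.53 and 1.48 in the other replicates and 1.70 and 1.77 in NoIP. The highest gpd1 window of each library lay in the 3′ part, between 4037001 and 4037301, in all 10 libraries. At gpd2 the coding sequence was at 0.28, 0.28 and 0.33 in Myo1-GFP and 0.37 and 0.31 in NoIP in high phosphate. The low phosphate values were 0.39, 0.53 and 0.57 in Myo1-GFP and 0.43 and 0.42 in NoIP, higher in both kinds of library by 0.20 and 0.09. Over the 3′ untranslated region of gpd2 NoIP had 0.17 and 0.43 in high and 0.81 and 0.73 in low phosphate, and upstream of gpd2 all groups overlapped.

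The genes around gpd1 and gpd2 gave no call in any contrast. The noncoding RNA gene SPNCRNA.1657, whose 2 windows cover the gpd1 start, differed between low and high phosphate by 0.96 ± 0.28 (SE) in Myo1-GFP (limma adjusted p = 0.25) and by 0.74 ± 0.34 (SE) in NoIP (adjusted p = 0.812). Its windows share reads with those of gpd1 and are no separate measurement. For SPNCRNA.436 upstream of gpd1 the same differences were 0.20 and 0.34, and for SPBC215.06c downstream, which encodes a LYHRT family protein, they were 0.20 and 0.15. For SPNCRNA.1658, further downstream, the Myo1-GFP difference was near 0 and the NoIP difference 0.50 ± 0.32 (SE). Its Myo1-GFP libraries from low phosphate had 0.69, 0.73 and -0.38 and its NoIP libraries 0.90 and 0.73, and without the shallow replicates the differences with phosphate were 0.40 and 0.50. Near gpd2, the GTPase-activating protein gene SPAC23D3.03c had 0.07 and 0.10 and SPNCRNA.979 had -0.07 and 0.00.

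Of the genes that make or use dihydroxyacetone phosphate and glycerol, 5 of 6 were measured under their own Gene ID, and 0 passed in any contrast. The list median of Myo1-GFP minus NoIP was -0.12 in high phosphate, against 0.00 for all Gene IDs, and -0.19 in low phosphate, against -0.06. The aldolase gene fba1, whose enzyme makes dihydroxyacetone phosphate, had 0.93, 1.04 and 1.25 in Myo1-GFP and 1.68 and 1.41 in NoIP in high phosphate, a difference of -0.47 ± 0.24 (SE). Like gpd1 it was a high-signal gene with the groups apart in high phosphate, an order found for 11.1% of Gene IDs. In low phosphate fba1 had 0.85, 0.97 and 0.21 in Myo1-GFP and 1.13 and 0.85 in NoIP. Its NoIP change with phosphate was -0.56 ± 0.26 (SE). Its Myo1-GFP change was -0.40 ± 0.21 (SE), or -0.08 in the 8 deeper libraries, whereas that of gpd1 was 0.78. The triose-phosphate isomerase gene tpi1 had 1.23 and 0.98 in NoIP from high phosphate and 0.51 and 0.37 from low phosphate. Over tpi1 Myo1-GFP had 0.78, 0.76 and 1.10 in high and 0.31, 0.57 and 0.32 in low phosphate, so that both kinds of library were lower in low phosphate. The changes of tpi1 were -0.67 ± 0.17 (SE, adjusted p = 0.269) and -0.48 ± 0.14 (SE, adjusted p = 0.264).

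For the dihydroxyacetone kinase genes Myo1-GFP lay below NoIP in every library from low phosphate, an order found for 12.6% of Gene IDs, and neither difference passed (limma adjusted p = 0.963). Signal over dak2 was 0.43, 0.38 and -0.04 in Myo1-GFP and 0.48 and 0.49 in NoIP, and over dak1 it was 0.43, 0.28 and 0.23 in Myo1-GFP and 0.47 and 0.54 in NoIP. The differences were -0.23 for dak2 and -0.19 for dak1, or -0.08 and -0.15 in the 8 deeper libraries. In NoIP dak2 was at -0.09 and -0.29 in high phosphate, a change of 0.68 ± 0.16 (SE, adjusted p = 0.21). The glycerol dehydrogenase gene gld1 was higher in low phosphate in every Myo1-GFP library, by 0.30 ± 0.12 (SE, limma adjusted p = 0.458). In the 8 deeper libraries the gld1 change was 0.21. The same order held for dak2, by 0.36 ± 0.13 (SE, limma adjusted p = 0.41), or 0.51 in the 8 deeper libraries. This order was found for 9.19% of Gene IDs.

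In the stress MAP kinase branch, 0 of the 4 genes wis1, sty1, atf1 and pcr1 passed in any contrast. The transcription factor gene atf1 had 0.24, 0.34 and 0.03 in Myo1-GFP and 0.47 and 0.61 in NoIP in high phosphate, a difference of -0.33 ± 0.13 (SE). In low phosphate the groups of atf1 overlapped, at 0.57, 0.47 and 0.48 in Myo1-GFP and 0.40 and 0.65 in NoIP. Its interaction was 0.32 ± 0.19 (SE) and did not pass. The MAP kinase gene sty1 differed by -0.07 between Myo1-GFP and NoIP in high phosphate, with the groups apart, an order found for 11.1% of Gene IDs. The gene pcr1, for the partner of Atf1, was higher in low phosphate in both NoIP libraries, by 0.40 ± 0.16 (SE, limma adjusted p = 0.723). That order was found for 28.9% of Gene IDs.

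The Gene IDs whose means followed gpd1 most closely over the 10 libraries, among 5418 with at least 5 windows, were vip1 (Pearson r = 0.935), esc1 (0.926), imp2 (0.925), which encodes a protein of the cytokinetic ring, hmt2 (0.898), for a sulfide-quinone oxidoreductase, and the kinase gene kin1 (0.894). The mean over vip1 was 0.21 in Myo1-GFP and 0.45 in NoIP in high phosphate, and 0.41 and 0.42 in low phosphate. For gpd2 the closest were the glutathione S-transferase gene gst3 (0.898), SPNCRNA.728 (0.889), SPNCRNA.665 (0.885), mmf1 (0.882) and the metallothionein gene zym1 (0.862). The paralogues did not follow each other, with r = 0.106, which placed gpd2 at rank 2117 for gpd1. All points share libraries and their depths, so the correlations are a description.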

How the data were processed

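Chromatin immunoprecipitation sequencing of 10 libraries was analysed from the table of windows that the authors deposited. Per the labels, reads were trimmed with Trim Galore 0.3.8 and aligned with Bowtie2 2.2.4, whereas the methods of the study name TopHat 2.0.12; the build is ASM294v2, and values were made in SeqMonk. The deposited values are a signal per window of 200 bp placed every 100 bp, scaled by the authors by a factor per library that is not given in the sources used here. They are not counts, so no count model was used. All 10 value columns were used, and 0 were left out.

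A window was kept where at least 2 libraries exceeded 0 (126242 of 126317). Signal was transformed as log2(signal + 1) and centred on the median window of each library. A gene value is the mean over the windows that carry its Gene ID. All windows, and separately all 6115 Gene IDs, were fitted with limma 3.58.1 in R 4.3.3 (trend, 1 mean per group, two-sided, Benjamini-Hochberg adjusted p under 0.05). The fit was tested on simulated data. Tables were made with pandas 2.3.3, numpy 2.4.6 and scipy 1.17.1 under Python 3.11.15, and matplotlib 3.10.9 drew the plots.

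The members, lists, motifs and tests were chosen with earlier results of these data known. Named windows were, by rule, those of highest and lowest value in each contrast and those nearest the gene starts. The other windows named, among them those at 4034801, 4035301, 4036001, 4036201 and 4343301, were picked after their values were seen. Lists were matched by symbol. The symbol fps1 belonged to a gene of isoprenoid synthesis and not to the aquaglyceroporin intended, so it was left out, and gut2 had no window of its own Gene ID, since its 29 windows carry SPNCRNA.1235. Sequences came from RefSeq ASM294v3, by its own coordinates. Its chromosomes I to III have the lengths of the table's, 99.4% of windows with a Gene ID have one in this annotation, and 95.7% of those overlap that gene. Alternatives were no centring, quantile normalization, other filters, a pseudocount of 1000, no trend, array weights, a replicate block, median or summed windows, the 8 deeper libraries, and leaving out each library.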

Additional observations from a re-analysis of the deposited data

Results flagged for a closer look

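In 5 windows of gpd1 every Myo1-GFP library moved up and both NoIP libraries moved down in low phosphate. The Myo1-GFP change minus the NoIP change was 1.58 at 4035701, 1.33 at 4035801, 1.32 at 4035901, 1.08 at 4036001 and 0.74 at 4036101. In the 8 deeper libraries, without the shallow Myo1-GFP replicates 3, the values were 0.67, 0.68, 1.0, 0.98 and 0.94, so that both the size at the 5′ end and the order along the gene rested on the shallow libraries. No p-value is given for the difference between the changes there, because gpd1 was chosen on it. The same order at gpd2 occurred at 4343301, with 0.43, and that window did not pass the limma test of the interaction. Upstream of gpd1, at 4034801, the Myo1-GFP libraries were all above the NoIP libraries in high phosphate and all below in low phosphate. The differences were 0.25 ± 0.19 (SE) and -0.14 ± 0.19 (SE), 0.40 apart. The order in low phosphate held in 11.9% of all windows. The share with the order in high phosphate, or with both orders, was not counted, so how unusual this window is cannot be said. The gap between the differences was not tested.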

How the results depend on the processing

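Of 735 values recomputed under alternatives, 66 moved by more than the spread between libraries or, for counts, 1.5 times. Of the differences, 18 changed sign: 16 of gpd2, near 0, 1 of gpd1 and 1 of gpd1 minus gpd2, the last both for Myo1-GFP minus NoIP in low phosphate. No gpd2 gene mean passed the threshold under any of them (lowest adjusted p by limma 0.109). The gpd2 difference of Myo1-GFP and NoIP was -0.013 in high and -0.019 in low phosphate without centring, and in high phosphate -0.0093 with array weights and -0.024 in the 8 deeper libraries. The gpd2 interaction was 0.048 with quantile normalization, 0.067 with array weights, 0.028 with the median over windows and 0.083 in the 8 deeper libraries.

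At gpd1, quantile normalization gave 0.61 for the Myo1-GFP change and 0.76 for the interaction. The median over windows gave -0.24 for Myo1-GFP minus NoIP in low phosphate and 0.81 for the interaction. For gpd1 minus gpd2, the interaction was 0.71 with quantile normalization, 0.76 with array weights and 0.74 in the 8 deeper libraries, and the Myo1-GFP change was 0.47 with array weights and 0.45 in the 8 deeper libraries. With array weights 1 gpd2 window passed for the Myo1-GFP change (adjusted p = 0.0176), as did 10189 windows of the table.

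Leaving out 1 library at a time, the gpd1 differences ran from -1.19 to -0.86 in high phosphate, from -0.34 to -0.0083 for the NoIP change and from 0.79 to 1.12 for the interaction, each end set by a NoIP high phosphate replicate. In low phosphate they ran from -0.17 to 0.041, the latter without NoIP low phosphate replicate 2, and for gpd1 minus gpd2 from -0.18 to 0.017, the latter without Myo1-GFP low phosphate replicate 2. The gpd2 differences ran from -0.024 to 0.086 in high phosphate, from -0.049 to 0.061 in low phosphate and from -0.080 to 0.037 for the interaction. The number of windows passing for the Myo1-GFP change, 22 in all, ran from 0 to 621, and of Gene IDs, 8 in all, from 1 to 86, the highest without Myo1-GFP low phosphate replicate 3. For the NoIP change the Gene IDs passing, 13 in all, ran from 0 to 76, and the windows from 0 to 421. In the 8 deeper libraries 7336 windows and 523 Gene IDs passed for it.

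With a replicate block the gpd1 difference in high phosphate was -1.01 and that of gpd2 0.026, and no gpd1 or gpd2 call changed. The block moved the windows passing for the Myo1-GFP change from 22 to 40 and the Gene IDs from 8 to 26. Deviations of same-numbered Myo1-GFP libraries correlated at 0.073, 0.159 and 0.136, and those of NoIP at 0.367. Since not every one exceeded 0.1, the numbers were not taken to pair the libraries. The shallow libraries limit single windows, and the cause of these shifts was not tested.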
